A study of Pinus pinaster with 6 samples.

Results

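The transcripts pp_108445, pp_108449, pp_108453, pp_108458 and pp_108462 of maritime pine (*Pinus pinaster*) roots carry the name calcium binding protein and stood among the abundant transcripts of these roots. They are 5 of the 46658 transcripts in the table of root expression, and they were chosen by ID, with their level, their ammonium response and the constancy of their ratios already known. Their levels, ratios and responses are therefore given as a description, and no test is read from them. The data file holds only the IDs. The name, and a match to an EF-hand protein family of *Arabidopsis*, come from the study's own annotation, so the name could not be checked against the expression values. No marker genes of root tissues were at hand either.

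EF-hand proteins hold calcium ions in a helix-loop-helix fold. Calmodulin and the calmodulin-like proteins of plants belong to this family. They change shape when cytosolic calcium rises and then bind enzymes, channels or transcription factors, so that a calcium signal set off by touch, cold, microbes or nutrients is passed on. Other proteins of the same signalling layer are the calcineurin B-like sensors (CBL) and the CBL-interacting protein kinases (CIPK), which act as pairs in the regulation of ion transport in *Arabidopsis* roots.

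Ammonium-treated roots (libraries N1, N2 and N3) were collected 24 h after seedlings received 80 mL of NH4Cl at 3 mM, and watered roots (libraries C1, C2 and C3) 24 h after seedlings received 80 mL of water. All seedlings had been raised on vermiculite with distilled water, and there were 3 libraries per group. Native poly(A) RNA was read by Nanopore direct RNA sequencing (DRS), in which each read is 1 RNA molecule. Values are in CPM, reads scaled to the size of the library, which are not divided by transcript length because a long read is counted once. The reads on the listed transcripts numbered 2947096 to 5416076 in the ammonium libraries and 1270378 to 4801448 in the water libraries. Their CPM summed to 956946 to 965552 under ammonium and 974640 to 996695 under water, so some counted reads lay outside the list. A single read was worth 0.178 to 0.325 CPM under ammonium and 0.205 to 0.767 CPM under water. Library C1, the shallowest, stood apart on the first principal component and N1 on the second, so results are also given without this pair. These are whole roots, in which fewer cells of a type and less RNA per cell cannot be told apart.

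Each of the 5 forms was less abundant in ammonium-treated roots. Form pp_108462 had 739, 570.2 and 625 CPM in N1, N2 and N3, against 1071, 1341 and 1193 CPM in C1, C2 and C3. The highest ammonium library was N1 and the lowest water library was C1, and the groups did not overlap. Form pp_108449 had 736, 558 and 617 CPM in N1, N2 and N3, against 1089, 1329 and 1177 CPM in C1, C2 and C3. Form pp_108445 had 749, 557 and 619.5 CPM in the ammonium libraries, against 1051, 1297 and 1193 CPM in the water libraries. These 3 forms were at almost the same level in every library, and C2 was the highest library of each. Form pp_108458 was somewhat lower, with 522, 421 and 480.5 CPM in N1, N2 and N3, against 761, 1031 and 1014 CPM in C1, C2 and C3. Form pp_108453 was the least abundant, with 146, 124 and 130.3 CPM under ammonium, against 205, 303 and 303 CPM under water. In both of these forms C1 was set well below C2 and C3, which lay close together, while the ammonium libraries kept the order seen in the other forms.

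**Figure D1:**
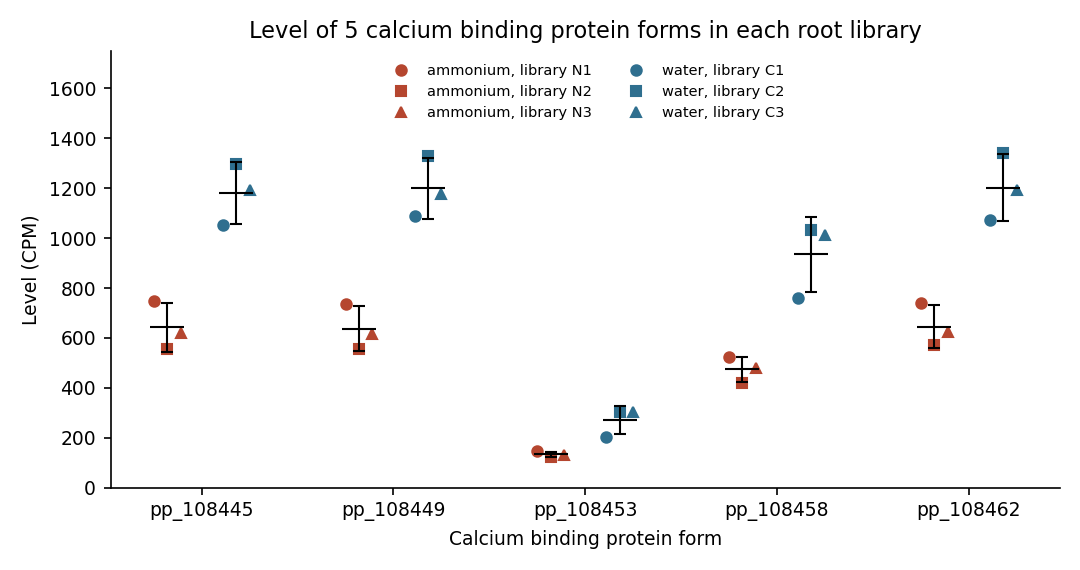
Level in CPM (vertical axis) of the 5 calcium binding protein forms (horizontal axis) in the 3 ammonium libraries and the 3 water libraries, with a point per library and bars for the mean and SD (n = 3). In each form the ammonium libraries lie below the water libraries, for example 421 to 522 CPM against 761 to 1031 CPM for pp_108458.

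On average, pp_108462 was at 645 ± 86.3 CPM under ammonium and 1202 ± 135 CPM under water (SD, n = 3 in each group). The corresponding means were 637 ± 90.7 and 1199 ± 121 CPM for pp_108449, and 642 ± 98.0 and 1180.4 ± 123 CPM for pp_108445. The differences among these 3 forms, within a group, were far smaller than the SD over its libraries, so their order in level cannot be read. Form pp_108458 averaged 475 ± 51.1 CPM under ammonium and 935 ± 151 CPM under water, and pp_108453 averaged 133 ± 11.7 and 270.4 ± 56.8 CPM. Both lay below the other 3 in every library. The ratio of the group means, ammonium over water, ran from 0.494 for pp_108453 to 0.544 for pp_108445, with 0.507 for pp_108458, 0.531 for pp_108449 and 0.537 for pp_108462.

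Limma on log2(CPM + 1), a linear model fitted to all 46658 transcripts with adjustment by Benjamini-Hochberg, gave log2 fold changes of -0.99 (SE 0.14) for pp_108453, -0.97 (SE 0.12) for pp_108458, -0.92 (SE 0.11) for pp_108449, -0.90 (SE 0.11) for pp_108462 and -0.88 (SE 0.12) for pp_108445. The median log2 fold change of all transcripts was 0.00. All 5 forms were among the transcripts called at an adjusted p under 0.05, which were 0.0386% of those tested, and in all 5 the ammonium libraries lay below all water libraries, as in 6.94% of the table. Because the forms were chosen on this contrast, nothing is read from these counts, and the number called was 0 without N2, without N3, without C2 and where the spread was moderated without a trend. Without N1 and C1 together the log2 fold changes were larger in size, between -1.25 for pp_108453 and -1.08 for pp_108445.

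The 5 forms made up 0.302%, 0.231% and 0.256% of all listed reads in N1, N2 and N3, against 0.429%, 0.540% and 0.490% in C1, C2 and C3. The exact binomial 95% interval was 0.296 to 0.309% in N1, the ammonium library with the highest share, and 0.417 to 0.440% in C1, the water library with the lowest. These intervals cover counting error only. The mean share was 0.263 ± 0.0360% under ammonium and 0.486 ± 0.0556% under water (SD, n = 3), a ratio of 0.542. In summed level this was 2532 ± 336 CPM under ammonium and 4786 ± 568 CPM under water. How reads that match several near-identical forms were counted is not stated in the sources, so the 5 forms cannot be taken as separate measurements, and the share may count a molecule more than once.

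In rank, pp_108462 was number 75, 121 and 112 of all transcripts in N1, N2 and N3, against 36, 19 and 21 in C1, C2 and C3. Form pp_108458 ranked 142, 182 and 158 under ammonium, against 79, 42 and 42 under water. Form pp_108453 ranked 903, 1166 and 1084 under ammonium, against 560, 302 and 317 under water. By mean level, 0 of the 5 forms were among the first 100 transcripts of ammonium-treated roots, and 4 of the 5 were among the first 100 of watered roots. Under ammonium, pp_108462, pp_108445 and pp_108449 ranked 108, 111 and 113 by mean level, just past this cut. In N1 alone they ranked 75, 70 and 76, within it.

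**Figure D2:**
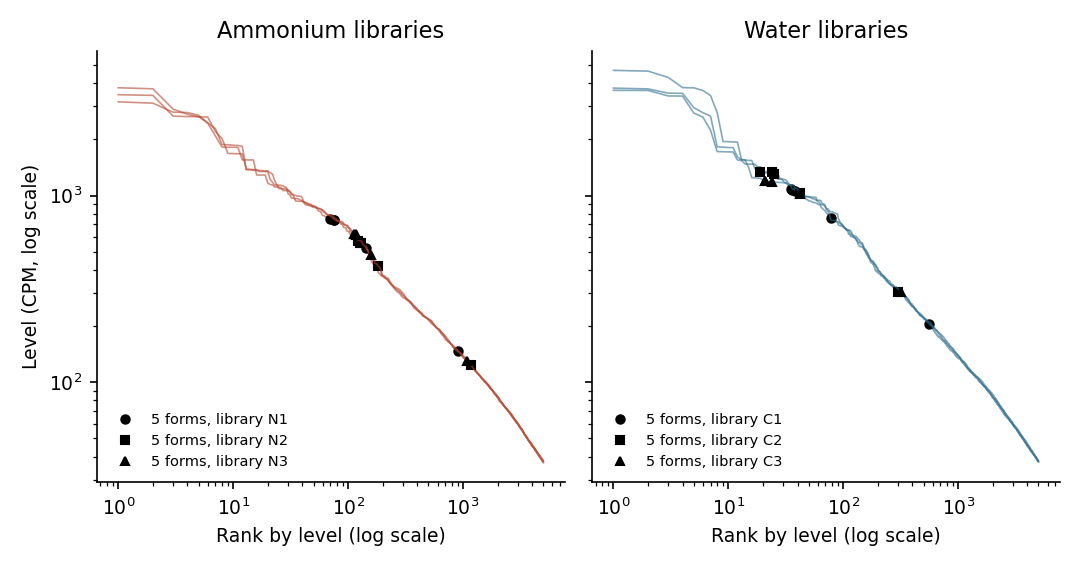
Level in CPM against rank for the most abundant transcripts of each library, both on log scales, with ammonium libraries on the left and water libraries on the right. Lines are libraries and black symbols are the 5 forms. Form pp_108462 sits at ranks 75 to 121 under ammonium and 19 to 36 under water.

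For scale, the most abundant transcript of the table was pp_134772, annotated as the antifungal protein ginkbilobin-2, at 3472 ± 300.4 CPM under ammonium and 3951 ± 654 CPM under water. Apart from the forms themselves, the transcripts next to the 5 forms in mean level over all libraries differed less between the groups. The forms were chosen with their ammonium response known, so a smaller difference in their neighbours is no test. Next to pp_108462 stood pp_153045, a methyltransferase that uses S-adenosyl-methionine, at 936 ± 68.9 CPM under ammonium and 913 ± 51.1 CPM under water. Next to pp_108445 stood pp_79642, annotated as defensin-1, a small antimicrobial peptide, at 859 ± 82.4 and 960.3 ± 21.6 CPM in the same order. Form pp_108458 lay between pp_217046, an RmlC-like cupin, at 739.6 ± 117 CPM under ammonium and 686 ± 38.1 CPM under water, and pp_245191, an auxin-repressed protein, at 659 ± 54.0 CPM under ammonium and 743 ± 60.8 CPM under water.

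The 3 near-equal forms split their reads evenly in every library. Among the reads of pp_108445, pp_108449 and pp_108462, the share of pp_108445 was 33.7%, 33.1% and 33.3% in N1, N2 and N3, against 32.7%, 32.7% and 33.5% in C1, C2 and C3. The share of pp_108449 was 33.1%, 33.1% and 33.1% under ammonium, against 33.9%, 33.5% and 33.0% under water. No share of the 3 forms was outside 32.7 to 33.9% in any library. The ratio of pp_108445 to pp_108449 ran from 0.965 to 1.02, and its log2 value had an SD of 0.031 over the libraries. In the study's annotation these 3 forms match the same unigene.

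Among all 5 forms the shares moved a little more. Form pp_108458 took 18.1%, 18.9% and 19.4% of the reads of the 5 forms in N1, N2 and N3, against 18.2%, 19.4% and 20.8% in C1, C2 and C3. Form pp_108453 took 5.06%, 5.55% and 5.27% under ammonium, against 4.90%, 5.72% and 6.22% under water. Both were lowest in N1 and C1 and highest in C3, and the groups overlapped. Mean shares were 18.8 ± 0.693% and 19.5 ± 1.28% for pp_108458 and 5.29 ± 0.243% and 5.61 ± 0.663% for pp_108453, under ammonium and under water (SD, n = 3), differences smaller than the spread over the water libraries.

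The ratio of pp_108453 to pp_108458 was 0.269 to 0.299 over the 6 libraries (SD of the log2 ratio 0.065), and that of pp_108445 to pp_108458 was 1.18 to 1.43 (SD 0.10). Steady ratios were part of the choice of these forms, so their spread is a description only. A steady ratio was common among transcripts with consecutive IDs. Among 701 pairs of transcripts with consecutive IDs and a mean of at least 100 CPM each, the median SD of the log2 ratio was 0.017. Of these pairs, 51.6% were at or below the steadiest pair of the 5 forms, pp_108449 and pp_108462. For the least steady pair of the 5 forms, pp_108449 and pp_108453, the percentage was 84.9%. In the steadiest pair the SD of the log2 ratio was 0.019, where counting error of separate reads would give 0.039. Transcripts with consecutive IDs may share reads, which was not tested, so these pairs give no scale for separate transcripts.

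**Figure D3:**
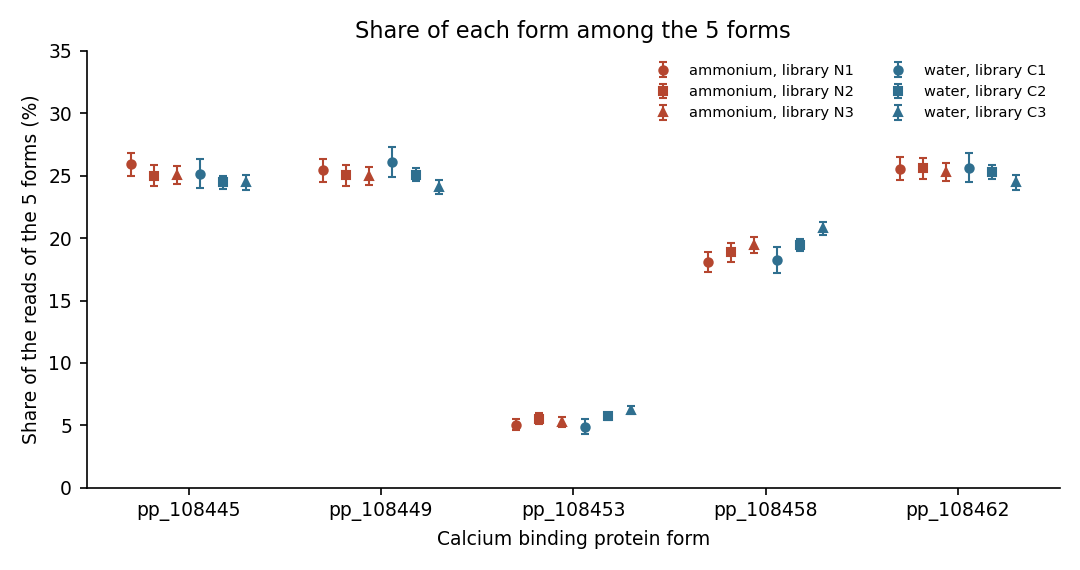
Share of each form, in percent of the reads of the 5 forms (vertical axis), for ammonium and water libraries, with exact binomial 95% intervals that cover counting error only. Forms pp_108445, pp_108449 and pp_108462 lie between 24.1% and 26.1% in all libraries, while pp_108458 (18.1% to 20.8%) and pp_108453 (4.90% to 6.22%) are highest in C3.

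Around the 5 forms, the first and last consecutive IDs that carry the same name in the study's annotation are pp_108444 and pp_108467, and 23 of the 24 IDs of this stretch were in the table. The 23 took 0.451 ± 0.0751% of all listed reads under ammonium and 0.800 ± 0.116% under water (SD, n = 3), of which the 18 other IDs took 0.187 ± 0.0393% and 0.315 ± 0.0604%. Of these 18, limma called 2 lower and 0 higher, pp_108447 and pp_108452, against 0.0300% of all transcripts called lower. At an unadjusted p under 0.05, 14 of the 18 were lower and 0 higher, against 4.58% and 4.10% of all transcripts. With whole reads, edgeR's exact test had 7 of the 18 lower (0.568% of all transcripts), its quasi-likelihood test 4 (0.182%) and DESeq2 5 (0.122%). Since reads may be shared with the 5 forms, these 18 are not separate evidence.

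Form pp_108447, which the annotation places in the same unigene as the near-equal forms, had a mean of 573 ± 91.4 CPM under ammonium and 1021 ± 102 CPM under water (log2 fold change -0.84, SE 0.12, adjusted p = 0.0166 from limma). Its ammonium libraries also lay below its water libraries. Form pp_108452 was at 195 ± 28.9 CPM under ammonium and 379 ± 77.6 CPM under water (log2 fold change -0.95, SE 0.14, adjusted p = 0.0285 from limma). The calls of both were lost without N2, N3 or C2 (adjusted p 0.0952 to 0.187 from limma) and with no trend (0.548). That of pp_108452 was also lost without C3 (adjusted p = 0.0548 from limma) and under a filter of 10 CPM in 3 libraries (0.0610). All 6 other IDs with a mean of at least 100 CPM had every ammonium library below every water library, which was the case for 11.4% of the 1575 transcripts at that level, and their ratios of group means were 0.513 to 0.619.

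Of the 11 scarcer IDs with a mean of 10 to 100 CPM, 2 had all ammonium libraries below all water libraries, as had 7.90% of the 16257 transcripts at that level, and in the single ID below 10 CPM the groups overlapped. Form pp_108456 had 39.0, 16.6 and 17.3 CPM in N1, N2 and N3, against 10.7, 33.8 and 31.8 CPM in C1, C2 and C3, with a log2 fold change of -0.02 (SE 0.36). Form pp_108457 had 57.8, 22.2 and 22.1 CPM under ammonium, against 23.8, 58.3 and 40.9 CPM under water (log2 fold change -0.32, SE 0.33). Form pp_108459, the scarcest, averaged 4.66 ± 2.71 CPM under ammonium and 3.46 ± 1.02 CPM under water, on 3 to 24 reads per library. In these 3 forms N1 was above C1 by 3.63, 2.43 and 3.39 times, while N2 and N3 together were at 0.518, 0.447 and 0.766 times C2 and C3.

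Libraries N1 and C1 stood at the edge of their groups throughout the stretch. N1 was the highest ammonium library in all 23 IDs, as in 37.9% of all transcripts, and C1 was the lowest water library in 22 of 23, as in 38.6% of all transcripts. For the 5 forms the ratio of N1 to C1 was 0.675 to 0.715, and that of N2 and N3 to C2 and C3 was 0.419 to 0.473. Without N1 and C1, a setting chosen after the data were seen, the median log2 fold change was -1.09 in the 5 forms and -1.09 in the 18 other IDs, against -0.92 and -0.64 with all 6 libraries, and limma called 16 of the 18 lower, against 0.523% of all transcripts in that setting. What part the depth of C1 or the state of these 2 libraries had in this was not tested.

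**Figure D4:**
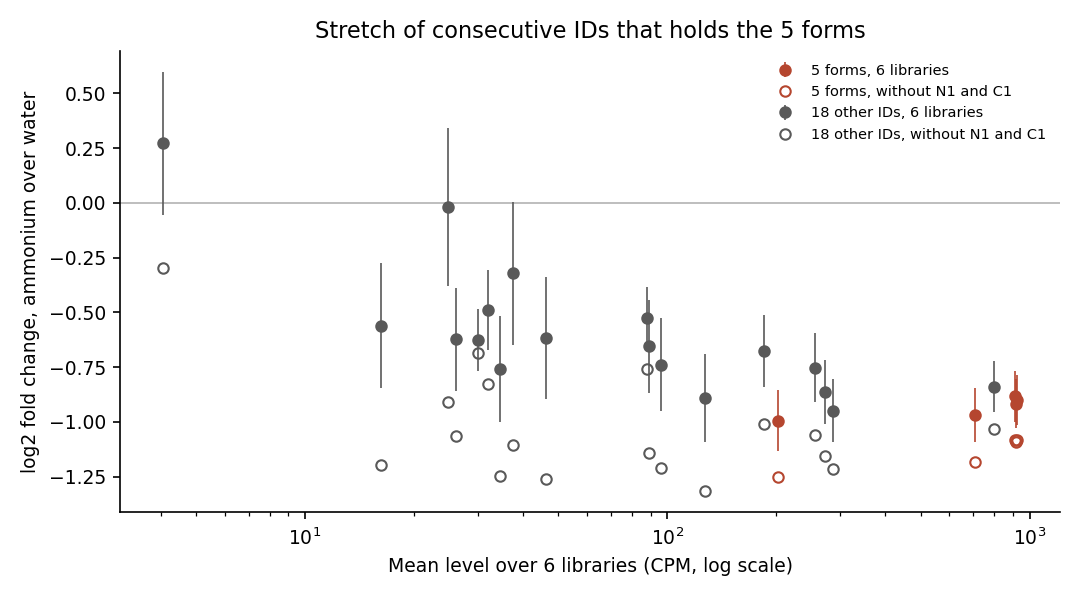
Log2 fold change, ammonium over water (vertical axis), against mean level in CPM on a log scale for the 23 IDs of the stretch, with bars for the standard error of limma. Filled points use 6 libraries and open points leave out N1 and C1. The 5 forms lie between -0.99 and -0.88 with all libraries and the 18 other IDs between -0.95 and 0.27.

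Profiles most like that of the 5 forms were sought among 17810 transcripts outside the stretch with a mean of at least 10 CPM, by the root mean square (RMS) difference of log2(CPM + 1) values over the 6 libraries, each centred on its own mean. The 5 forms themselves lay 0.042 to 0.093 from their mean profile. The nearest other transcript, at 0.136, was pp_169376, annotated as early nodulin-like protein 1, with 22.4, 20.9 and 23.5 CPM in N1, N2 and N3, against 35.3, 40.1 and 40.2 CPM in C1, C2 and C3. Among the 10 nearest were pp_247834 (RMS 0.168), an alcohol dehydrogenase, which makes ethanol in fermentation, with 36.0, 25.2 and 34.4 CPM under ammonium, against 69.0, 74.5 and 72.9 CPM under water, and pp_185735 (RMS 0.158), a CC-NBS-LRR resistance-like protein, at a mean of 8.34 CPM under ammonium and 17.5 CPM under water. The ubiquitin-conjugating enzymes pp_136833 (RMS 0.162) and pp_136834 (RMS 0.173), and a calcium binding protein with an ID outside the stretch, pp_146234 (RMS 0.172), were also among the 10. The rest were pp_227399 (RMS 0.155), pp_227400 (RMS 0.157), pp_202763 (RMS 0.170) and pp_227398 (RMS 0.170). Likeness over 6 libraries is a description of these values only.

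Other transcripts named for calcium signalling lay on both sides of 0, and limma called 0 of the 52 measured at an adjusted p under 0.05. At an unadjusted p under 0.05 limma listed 9 higher and 18 lower, against 4.10% and 4.58% of all transcripts. The count tests on recovered reads called 0 higher, and edgeR's exact test gave 8 lower (0.568% of all transcripts), its quasi-likelihood test 2 (0.182%) and DESeq2 1 (0.122%). Of the 8 lists, 5 were read from the first entries of a table that the study ordered by p on these libraries. Their directions, p-values and calls follow from that selection. Nothing is therefore read from their counts beside the share of all transcripts. Several lists also held transcripts with almost the same values in every library, such as the 3 of calcineurin B-like 3. Such transcripts may share reads, so counts over the lists are not counts of separate genes. The 6 calcium binding protein transcripts with IDs outside the stretch had a median log2 fold change of -0.74, with 6 of 6 lower and 2 called lower by edgeR's exact test, against 0.568% of all transcripts. Of these, pp_146235 had 66.9, 40.5 and 45.3 CPM in N1, N2 and N3, against 87.5, 112 and 78.4 CPM in C1, C2 and C3 (log2 fold change -0.87, SE 0.18, adjusted p = 0.117 from limma). As in the 5 forms, N1 was its highest ammonium library.

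The 4 transcripts like CML25, a calmodulin-like protein of *Arabidopsis*, had a median log2 fold change of -0.77. Of these, 3 were called lower by edgeR's exact test (0.568% of all transcripts), a count that follows from the selection by p. These 3 had almost the same values in every library, so they may share reads and are not separate evidence. Transcript pp_152812 had 7.14, 7.68 and 10.2 CPM in N1, N2 and N3, against 14.6, 15.3 and 15.0 CPM in C1, C2 and C3, with all ammonium libraries below all water libraries. The 9 CBL-interacting protein kinase transcripts all had log2 fold changes below 0, with a median of -0.63. The one farthest from 0 was pp_91958, with 4.22, 4.48 and 4.10 CPM under ammonium, against 10.7, 7.98 and 14.1 CPM under water (log2 fold change -1.15, SE 0.23, adjusted p = 0.110 from limma). In the opposite direction lay 6 transcripts of another EF-hand family (median 0.66) and 3 of calcineurin B-like 3 (median 0.43). The EF-hand transcript pp_79455 had 17.5, 19.0 and 20.5 CPM in N1, N2 and N3, against 9.97, 11.9 and 13.3 CPM in C1, C2 and C3 (log2 fold change 0.66, SE 0.17, adjusted p = 0.243 from limma), and pp_66605 of calcineurin B-like 3 had 76.0, 64.4 and 66.1 CPM, against 43.0, 53.4 and 57.2 CPM (log2 fold change 0.43, SE 0.13, adjusted p = 0.365 from limma). Not 1 of these 9 higher transcripts was called by edgeR's exact test.

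Lists that were not taken from the ordered table had medians closer to 0, which follows from the selection of the other lists by p. No contrast between the lists is read from this. The 4 annexins, which bind membranes in a calcium-dependent way, had a median log2 fold change of 0.04, with 2 higher and 2 lower. The most abundant, pp_86741, had 274, 278 and 289 CPM in N1, N2 and N3, against 308, 346 and 281 CPM in C1, C2 and C3, and the groups overlapped. Calreticulin, calmodulin, DREPP and C2 domain proteins (6 transcripts) had a median of -0.04. Calmodulin 7, pp_152323, was at 122, 140.5 and 134 CPM under ammonium, against 122, 124 and 128 CPM under water (log2 fold change 0.08, SE 0.10, adjusted p = 0.865 from limma). For the term calcium ion binding only part of the list of transcripts was available, and the ID stretch was left out of it. Of the 15 measured from that part, which include pp_152323, 5 were higher and 10 lower. Their median was -0.14, with 0 at an unadjusted p under 0.05 from limma. Limma, edgeR's exact test and the other count tests can miss small changes at this number of libraries, so these transcripts are not shown to be unchanged.

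**Figure D5:**
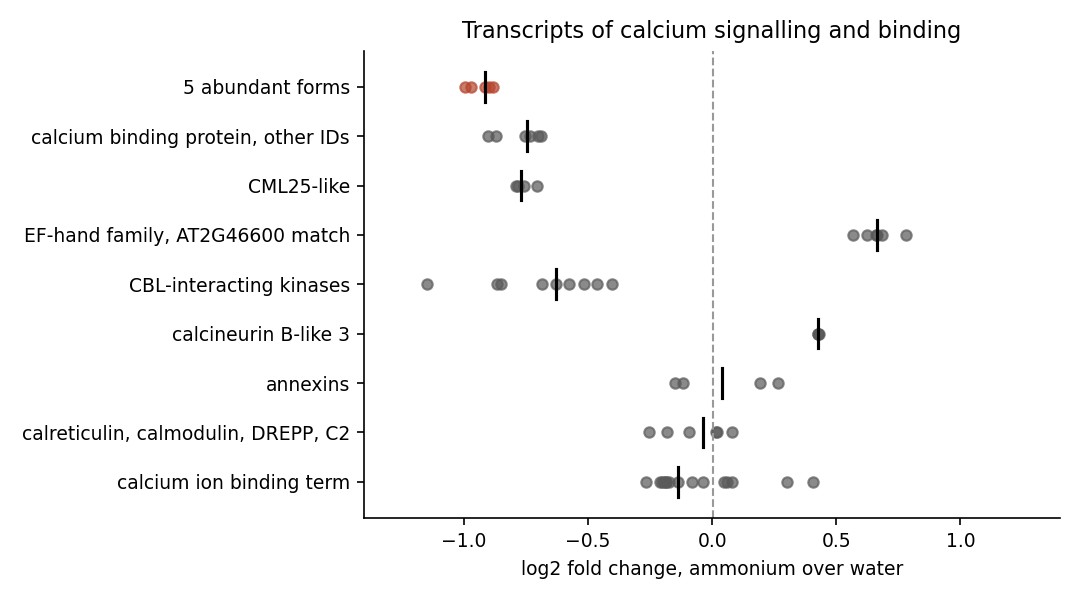
Log2 fold change, ammonium over water (horizontal axis), of the 5 abundant forms and of 8 lists of transcripts for calcium signalling and binding. Points are transcripts, black bars are medians and the dashed line is the median of all transcripts. The 5 forms have a median of -0.92, while calcineurin B-like 3 is at 0.43 and the annexins at 0.04. The forms and 5 of the 8 lists were selected on these libraries, so the medians are not compared.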

How the data were processed

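The authors aligned quality-filtered DRS reads to a root transcriptome with minimap2 and deposited CPM values, made with edgeR. All transcripts of the table reached 2 CPM in 2 or more libraries. The counting program and its treatment of reads matching several forms are not stated in the sources. Names came from annotation in the paper's supplementary tables. Dividing by the value of 1 read gave whole reads for 100% of values (tolerance 1e-06), and edgeR's exact test on them called 378 transcripts. The main test was limma with a trend on log2(CPM + 1), a pseudocount of 1 CPM and no further filter, on all 6 libraries, with Benjamini-Hochberg adjustment over 46658 transcripts. Log2 fold changes on this scale understate the change of low transcripts. The tools were limma 3.58.1, DESeq2 1.42.0 and edgeR 4.0.16, run in R 4.3.3.

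The settings tried were a pseudocount of 0.25 or 4 CPM, a filter of 10 CPM in 3 libraries, TMM factors on recovered reads, quantile normalization, no trend, the replicate number as a block, the count tests, and leaving out each library. Libraries of a group differed by more than counting error, with chi-square per degree of freedom of 1.33 to 2.96 between them. The labels state that the experiment was repeated independently but do not tie libraries to repeats, so p-values measure the spread between these libraries. Transcripts named were the 5 forms, their ID stretch, the neighbours in level, the most abundant transcript, up to 10 most alike profiles, and up to 4 of each calcium list by smallest limma p. The 5 forms and the lists were chosen with earlier results of these data known. No sequences of these transcripts were used here.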

Additional observations from a re-analysis of the deposited data

How the results depend on the processing

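The log2 fold changes of the 5 forms were below 0 in all 85 combinations of a form and an alternative, from -1.25 to -0.79, and in 81 of them moved by less than the SD between replicates. The exceptions were without N1 and C1 together, at -1.08 for pp_108445, -1.25 for pp_108453, -1.18 for pp_108458 and -1.08 for pp_108462. These counts are a description only, since the forms were chosen on this contrast and may share reads. Because their groups did not overlap, leaving out libraries could not change the sign. The fits without a trend and with the replicate block keep the fold change by construction. Limma called 18 transcripts in the table and 7 in the ID stretch. These counts were 0 and 0 without a trend (3658 transcripts and 15 IDs at an unadjusted p under 0.05), 378 and 12 with edgeR's exact test, and 352 and 21 without N1 and C1 together. In the table alone, edgeR's quasi-likelihood test called 114 and DESeq2 83. Leaving out 1 library at a time gave 0 to 71 transcripts in the table, lowest without C2. In the stretch it gave 0 to 10, with 0 without N2, without N3 and without C2. The deviations of same-numbered libraries from their group means had correlations of -0.0024, 0.0561 and -0.0085. With 3 libraries per group these cannot settle whether the same number marks the same repeat, so the pairing is unknown. With the replicate block limma called 49 transcripts and 7 IDs. With at least 10 CPM in 3 libraries the share of the 5 forms was 0.303% under ammonium and 0.558% under water, since fewer reads stood in the denominator. As shares of the whole ID stretch, the forms took 14.9% (pp_108445), 15.0% (pp_108449), 3.26% (pp_108453), 11.4% (pp_108458) and 15.1% (pp_108462). In C1 a value of 3 reads was 2.30 CPM, against 0.535 CPM in N3, so the scarce IDs are least precise in C1. Other causes of these differences were not tested.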
